A study of Homo sapiens with 8 samples.

Results

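The genes described here are 8 genes of hexose handling, chosen by symbol: the hexose transporters SLC2A1, SLC2A2, SLC2A3, SLC2A5 and SLC5A1, the fructose kinase KHK, and the alpha-arrestins TXNIP and ARRDC4. The choice was made with earlier results of these data known. All 8 were found among the 58302 Ensembl gene IDs of the count files, and all 8 passed the filter on low counts that left 18240 genes for testing. SLC5A1 passed that filter only through its postconfluent libraries. The libraries are RNA-seq of Caco-2/15 cells, a human colon cancer line whose confluent cultures acquire enterocyte-like features. Each line carries a Flag tag on 1 allele of an H2A.Z histone variant gene, H2AFV (now H2AZ2) in Z2flag cells and H2AFZ (now H2AZ1) in Z1flag cells, and no untagged line is among the samples analysed here. The 4 groups, with 2 libraries each, are postconfluent (Pc, 7 days after confluence) and subconfluent (Sc) Z2flag cells, and postconfluent and subconfluent Z1flag cells. The sources used here do not say whether each line is 1 clone.

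Hexoses cross membranes through facilitative carriers of the SLC2A (GLUT) family and, against a gradient, through sodium-coupled carriers of the SLC5A (SGLT) family. In the absorptive enterocyte the sodium-coupled SGLT1 takes up glucose and galactose and GLUT5 takes up fructose at the brush border, GLUT2 releases hexoses at the basolateral side, and ketohexokinase phosphorylates fructose. TXNIP and ARRDC4 are arrestin-fold proteins whose genes are switched on by the glucose-sensing factors MondoA and ChREBP, and both proteins restrain glucose uptake, TXNIP in part by driving internalization of GLUT1.

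Depth was 17063826 to 40881682 gene counts per library. The first principal component, with 71.7% of the variance, set the states apart, and postconfluent Z1flag replicate 1 and postconfluent Z2flag replicate 1 lay at opposite ends of the second, with 13.1%. Of 10 enterocyte markers, 8 had at least 1 CPM (counts scaled to a common library size, with TMM factors) in all 4 postconfluent libraries. The 10 summed to 3252 to 3942 CPM there, against 1427 to 2154 CPM in subconfluent cells. Among them APOA1 had a mean of 1542.5 CPM after and 385 CPM before confluence, while VIL1 had 512 CPM after and 566 CPM before. FABP2 was nearly absent in both states, with 0 to 3 counts in postconfluent libraries and 0 in all 4 subconfluent ones. Hepatocyte markers summed to 42.8 to 104.5 CPM in postconfluent and 2.84 to 18.2 CPM in subconfluent cells, with ARG1 at 0 in all 4 subconfluent libraries. Fibroblast markers summed to 56.5 to 80.3 CPM in postconfluent and 172 to 212 CPM in subconfluent cells, with COL1A2 at 0 in all 8 libraries. They did not move together. Mean levels of PDGFRA (8.75 CPM after, 84.7 before), LUM (19.5 after, 75.7 before) and COL3A1 (2.10 after, 14.6 before) were lower after confluence. That of COL1A1 was higher (34.1 CPM after, 11.6 before). Leukocyte and endothelial markers summed to 35.3 to 38.8 CPM in postconfluent and 13.4 to 31.8 CPM in subconfluent cells. PTPRC was at 0 in all 4 postconfluent libraries and at 0 to 1 counts in the subconfluent ones. Reads overlapping no feature made up 31.4% of reads in postconfluent and 32.0% in subconfluent Z1flag replicate 1, against 20.6% to 24.5% in the other 6 libraries. The part of these levels and shares in the results was not tested.

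After confluence the RNA of TXNIP rose 49.1-fold over both lines and that of ARRDC4 7.28-fold, the sodium-coupled carrier gene SLC5A1 rose 7.12-fold from a very low level, and the carrier genes SLC2A1 and SLC2A2 fell 2.94-fold and 4.58-fold. Within Z2flag cells 3 of the 8 genes rose and 1 fell, beside 37.6% of all genes called in either direction (18.3% higher and 19.3% lower). Within Z1flag cells 4 rose and 2 fell, beside 40.5% of all genes (21.3% higher and 19.1% lower). Over both lines 4 rose and 2 fell, beside 55.4% of all genes (27.8% higher and 27.5% lower). These counts of genes that rose include SLC5A1, which passed the filter on low counts only through postconfluent libraries. The changes were tested by edgeR's quasi-likelihood test with Benjamini-Hochberg adjustment over 18240 genes at 0.05. The titles number the 2 libraries of each group Exp1 and Exp2 (replicates 1 and 2 here) and do not say whether these were separate cultures. The p-values measure the spread between these libraries, which may be technical in part. In bulk RNA, fewer cells with a transcript and less of it per cell cannot be told apart.

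TXNIP (ENSG00000265972), which also binds and inhibits thioredoxin, lies on the minus strand of chromosome 1 at 145992435 to 145996600 (GRCh38). ARRDC4 (ENSG00000140450), its paralog, lies on the plus strand of chromosome 15 at 97960698 to 97973838. Because both genes rose in both lines and are textbook targets of the same factors, their promoters are printed, from 250 bases before to 50 after the RefSeq transcript start (GRCh38.p14), 5′ to 3′ along the gene. The TXNIP window is chr1:145996530-145996829 (minus strand, the first of 2 starts listed) and the ARRDC4 window is chr15:97960453-97960752 (plus strand). Capitals mark matches, on either strand, to the 3 motifs searched: a carbohydrate response element written as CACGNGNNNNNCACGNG, the E-box CACGTG, which is itself 1 form of the repeated unit CACGNG, and the CCAAT box, which reads ATTGG on the other strand.
TXNIP promoter: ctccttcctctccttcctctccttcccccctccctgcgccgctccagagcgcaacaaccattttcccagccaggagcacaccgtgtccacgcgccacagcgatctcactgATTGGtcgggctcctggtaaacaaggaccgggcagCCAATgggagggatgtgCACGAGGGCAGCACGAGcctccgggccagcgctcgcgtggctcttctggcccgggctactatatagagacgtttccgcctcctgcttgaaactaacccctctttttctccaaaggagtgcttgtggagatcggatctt
ARRDC4 promoter: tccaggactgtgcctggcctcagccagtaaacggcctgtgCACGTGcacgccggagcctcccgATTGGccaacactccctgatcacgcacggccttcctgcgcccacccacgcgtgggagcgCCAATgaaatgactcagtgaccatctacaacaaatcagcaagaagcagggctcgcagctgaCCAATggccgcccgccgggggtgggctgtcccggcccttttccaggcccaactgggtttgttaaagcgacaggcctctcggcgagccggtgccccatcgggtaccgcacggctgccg

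The TXNIP window holds 1 carbohydrate response element, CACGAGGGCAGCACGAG, at -88 to -72 from the start, and CCAAT boxes at -140 to -136 (other strand) and -105 to -101. Only 20 of 35116 RefSeq promoter windows of this length, or 0.057%, hold that element as written. The pattern takes both units in the same orientation, so elements with a reversed unit can be missed, in any window. The ARRDC4 window holds no such match, but an E-box at -210 to -205, present in 7.26% of all windows, and 3 CCAAT boxes starting at -187 (other strand), -128 and -67. At least 2 CCAAT boxes stand in 10.8% of windows. Of the 6 members with a window, SLC2A1 and SLC2A5 hold 1 CCAAT box each and SLC2A2 and SLC5A1 hold none of the 3 motifs. A match describes letters in this window and does not show a bound site, and the second TXNIP start listed, at chr1:145995695-145995994, holds no match.

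**Figure D1:**
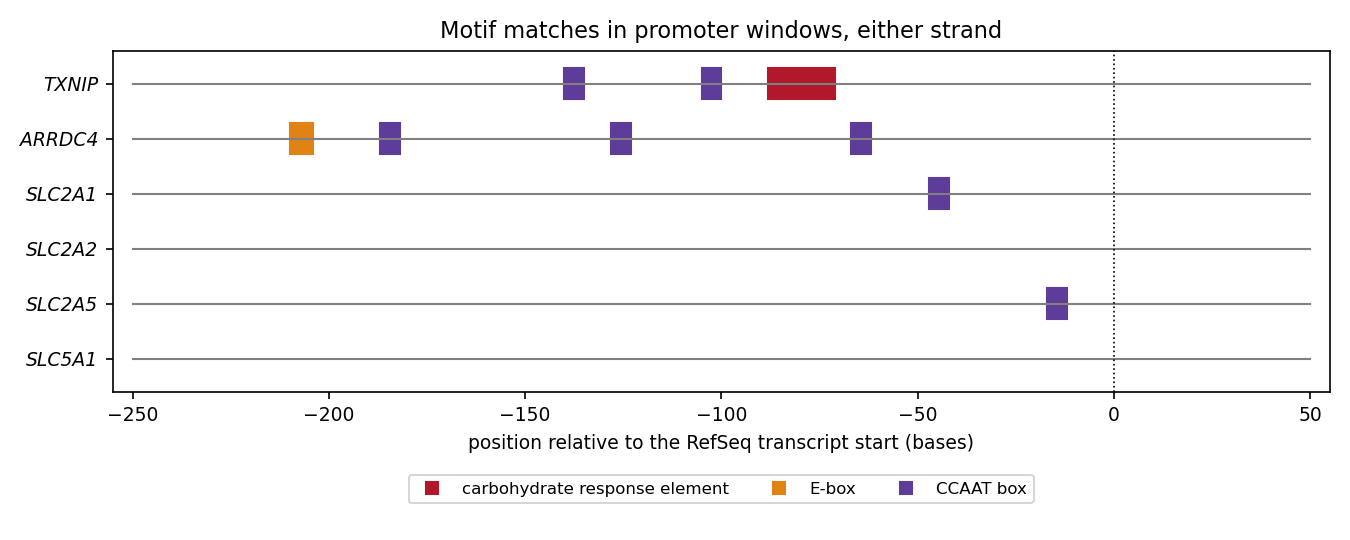
Motif matches in the promoter windows of 6 of the 8 genes. The horizontal axis is the distance in bases from the RefSeq transcript start (dotted line), each level is 1 gene, and boxes are matches on either strand. Among these windows the carbohydrate response element, in the same-orientation form searched, is marked for TXNIP alone, at -88 to -72.

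TXNIP had 2348 and 2264 CPM in postconfluent Z2flag libraries, against 46.2 and 49.6 CPM in subconfluent ones. In Z1flag cells it had 2540.0 and 1882 CPM after confluence, against 36.8 and 51.6 CPM before. Each postconfluent library lay more than 1 order of magnitude above each subconfluent library, and the 2 lines overlapped within each state. The log2 fold change was 5.59 (SE 0.28, edgeR adjusted p = 2.351e-05) in Z2flag and 5.64 (SE 0.28, adjusted p = 2.696e-05) in Z1flag cells, and 5.62 (SE 0.20, adjusted p = 9.129e-07) over both. Ranked by log2 fold change over both lines, TXNIP stood at place 80 of the 18240 genes. TXNIP made up 0.186% to 0.273% of all gene counts after confluence and 0.00366% to 0.00523% before. The call held in all 18 alternatives within each line and all 17 over both lines, with log2 fold changes of 5.22 to 5.90.

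ARRDC4 had 159 and 127 CPM in postconfluent Z2flag cells, against 14.9 and 21.2 CPM in subconfluent ones. In Z1flag cells the values were 189 and 90.0 CPM after and 20.6 and 21.2 CPM before confluence. Postconfluent libraries lay above subconfluent ones in both lines, with the 2 postconfluent Z1flag libraries 2.10-fold apart. The log2 fold change was 2.98 (SE 0.34, edgeR adjusted p = 0.000346) in Z2flag and 2.74 (SE 0.34, adjusted p = 0.000402) in Z1flag cells. Without postconfluent Z1flag replicate 1, which had the highest level, the Z1flag change was 2.14 (SE 0.23, adjusted p = 0.00025).

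**Figure D2:**
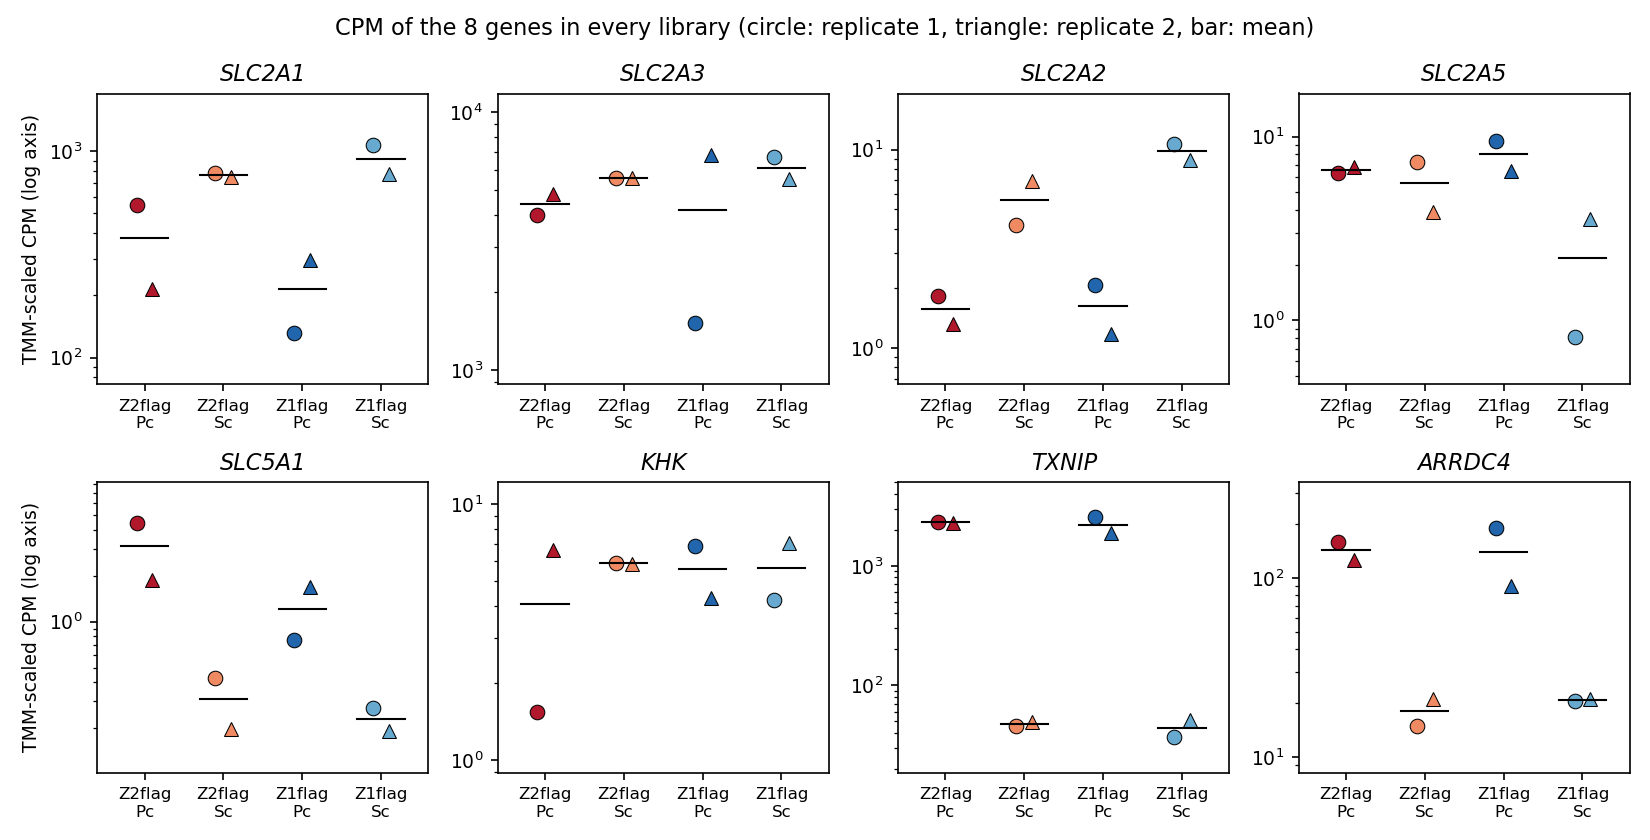
TMM-scaled CPM (log axes that differ between panels) of the 8 genes in the 4 groups; circles are replicate 1, triangles replicate 2 and bars the mean of 2 libraries. TXNIP and ARRDC4 separate the states in both lines, and SLC2A3 is at 1519 CPM in postconfluent Z1flag replicate 1 against 4004 to 6859 CPM in the other postconfluent libraries.

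Among the carriers, SLC2A1 (ENSG00000117394), the basal glucose carrier GLUT1, lies on the minus strand of chromosome 1 at 42925375 to 42959176. It had 548 and 215 CPM in postconfluent Z2flag cells, against 785 and 754 CPM in subconfluent ones. In Z1flag cells it had 132 and 298 CPM after and 1072 and 771 CPM before confluence. Every postconfluent library lay below every subconfluent one, but the postconfluent replicates were 2.55-fold apart in Z2flag and 2.26-fold apart in Z1flag cells. SLC2A1 fell by 2.10 on the log2 scale in Z1flag cells (SE 0.46, edgeR adjusted p = 0.00574). In Z2flag cells the log2 fold change was -1.01 (SE 0.45, adjusted p = 0.0979), which did not pass. Without postconfluent Z2flag replicate 1 it was -1.76 (adjusted p = 0.037), and without replicate 2 it was -0.40 (adjusted p = 0.553). The Z1flag value moved to -2.82 (adjusted p = 0.00499) without postconfluent Z1flag replicate 2, and to -1.34 without both Z1flag replicate 1 libraries, where it did not pass (adjusted p = 0.121). Over both lines SLC2A1 fell by 1.56 (SE 0.32, adjusted p = 0.00229), a call that held in all 17 alternatives (adjusted p up to 0.0291).

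SLC2A3 (ENSG00000059804), the high-affinity glucose carrier GLUT3, lies on the minus strand of chromosome 12 at 7919230 to 7936275 and had the highest level of the 8 genes in 7 of the 8 libraries by CPM per kb (all but postconfluent Z1flag replicate 1). It had 4004 and 4804 CPM in postconfluent Z2flag cells, against 5575 and 5582 CPM in subconfluent ones. In Z1flag cells it had 1519 and 6859 CPM after and 6696 and 5511 CPM before confluence, without overlap between the states in Z2flag cells and with overlap in Z1flag cells, where the 2 postconfluent libraries held the lowest and the highest value of all 8. The change passed in neither line, at -0.34 on the log2 scale (SE 0.50, adjusted p = 0.618 by edgeR) in Z2flag and -0.54 (SE 0.50, adjusted p = 0.417) in Z1flag cells. The Z1flag value rests on single libraries: it was 0.20 (adjusted p = 0.434) without postconfluent replicate 1 and -2.02 (adjusted p = 0.000163) without postconfluent replicate 2. Over both lines it was -0.44 (adjusted p = 0.313), and -1.14 (adjusted p = 8.5e-05) without postconfluent Z1flag replicate 2. SLC2A14, a close paralog of SLC2A3, had 2523 to 7051 counts per library against 40175 to 234589 for SLC2A3, and reads that both could take make the 2 counts uncertain.

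SLC2A2 (ENSG00000163581), encoding GLUT2 and located on the minus strand of chromosome 3 at 170996348 to 171026750, was lower after confluence. It had 1.82 and 1.32 CPM in postconfluent Z2flag cells, against 4.16 and 6.98 CPM in subconfluent ones. In Z1flag cells it had 2.08 and 1.17 CPM after and 10.7 and 8.89 CPM before confluence. The states did not overlap in either line. SLC2A2 fell by 1.82 (SE 0.40, edgeR adjusted p = 0.00634) on the log2 scale in Z2flag and by 2.57 (SE 0.40, adjusted p = 0.00104) in Z1flag cells. The Z2flag call was lost without postconfluent Z2flag replicate 2 (adjusted p = 0.0614) or subconfluent Z2flag replicate 2 (adjusted p = 0.0673), and the fall over both lines, by 2.19 (SE 0.28, adjusted p = 0.000143), held in all 17 alternatives.

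SLC5A1 (ENSG00000100170), encoding SGLT1, lies on the plus strand of chromosome 22 at 32043032 to 32113029. It had 80 and 31 counts (4.41 and 1.86 CPM) in postconfluent Z2flag libraries, against 18 and 7 counts (0.428 and 0.197 CPM) in subconfluent ones. In Z1flag libraries it had 20 and 33 counts (0.756 and 1.68 CPM) after and 6 and 5 counts (0.270 and 0.191 CPM) before confluence. All 4 postconfluent libraries lay above all 4 subconfluent ones, at a level that stayed low, and the postconfluent replicates were 2.37-fold apart in Z2flag and 2.23-fold apart in Z1flag cells. Too few subconfluent libraries reached the filter's level, so SLC5A1 was tested only through the state where it is high. Its calls are therefore a description and no independent support for a rise. SLC5A1 rose by 3.29 (SE 0.61, edgeR adjusted p = 0.00282) on the log2 scale in Z2flag and by 2.37 (SE 0.69, adjusted p = 0.0204) in Z1flag cells. The Z2flag value was 2.63 without postconfluent replicate 1, 3.87 without postconfluent replicate 2 and 3.94 without subconfluent replicate 1, each past the threshold. The Z1flag call was lost without postconfluent replicate 2 (1.70, adjusted p = 0.0934) or without subconfluent replicate 1 (2.61, adjusted p = 0.0821) or replicate 2 (2.13, adjusted p = 0.121), and without both Z1flag replicate 1 libraries (3.14, adjusted p = 0.054). Over both lines the change was 2.83 (SE 0.46, adjusted p = 0.000556), and it passed in all 16 alternatives that tested the gene.

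SLC2A5 (ENSG00000142583), encoding the fructose carrier GLUT5, lies on the minus strand of chromosome 1 at 9035107 to 9088478. It had 6.34 and 6.80 CPM in postconfluent Z2flag cells, against 7.25 and 3.88 CPM in subconfluent ones, and these ranges overlapped. In Z1flag cells it had 9.49 and 6.53 CPM after and 0.811 and 3.55 CPM before confluence, without overlap. SLC2A5 rose by 1.86 (SE 0.56, edgeR adjusted p = 0.0242) on the log2 scale in Z1flag cells, and in Z2flag cells the change was 0.24 (SE 0.53, adjusted p = 0.752). The difference between these changes, Z2flag minus Z1flag, was -1.63 (SE 0.77, adjusted p = 0.799) and did not pass. The Z1flag call was lost without postconfluent replicate 1 (adjusted p = 0.0775) or subconfluent replicate 1 (1.15, adjusted p = 0.118) or both (0.91, adjusted p = 0.2004), and without subconfluent replicate 2 the value was 3.29 (adjusted p = 0.00662). The rise over both lines, 1.05 (SE 0.39, adjusted p = 0.0401), was called in 10 of 17 alternatives. It was lost without postconfluent (0.0728) or subconfluent (0.0924) Z1flag replicate 1, without postconfluent Z2flag replicate 1 (0.0681) or 2 (0.0788), and without subconfluent Z2flag replicate 2 (0.137, all adjusted p). It was also lost without both Z1flag replicate 1 libraries (0.60, adjusted p = 0.128) and with a replicate block (adjusted p = 0.0504), while without subconfluent Z1flag replicate 2 the value was 1.76 (adjusted p = 0.00324).

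KHK (ENSG00000138030), on the plus strand of chromosome 2 at 27086747 to 27100772, showed no change that passed in either line. It had 1.54 and 6.62 CPM in postconfluent Z2flag cells, against 5.89 and 5.85 CPM in subconfluent ones. In Z1flag cells it had 6.85 and 4.29 CPM after and 4.24 and 7.06 CPM before confluence. The states overlapped in both lines, and 1 library, postconfluent Z2flag replicate 1 with 28 counts, lay below the others. The log2 fold change was -0.53 (SE 0.55, edgeR adjusted p = 0.468) in Z2flag and -0.02 (SE 0.54, adjusted p = 0.9805) in Z1flag cells. The Z2flag value was 0.25 (adjusted p = 0.686) without that library and -1.83 (adjusted p = 0.0286) without the other postconfluent Z2flag library. KHK overlaps exons of CGREF1 on the opposite strand (27 to 272 counts per library), and if strand was ignored in counting, its reads cannot be told from those of CGREF1 there. An exon of SLC2A1 likewise overlaps SLC2A1-DT (46 to 125 counts).

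**Figure D3:**
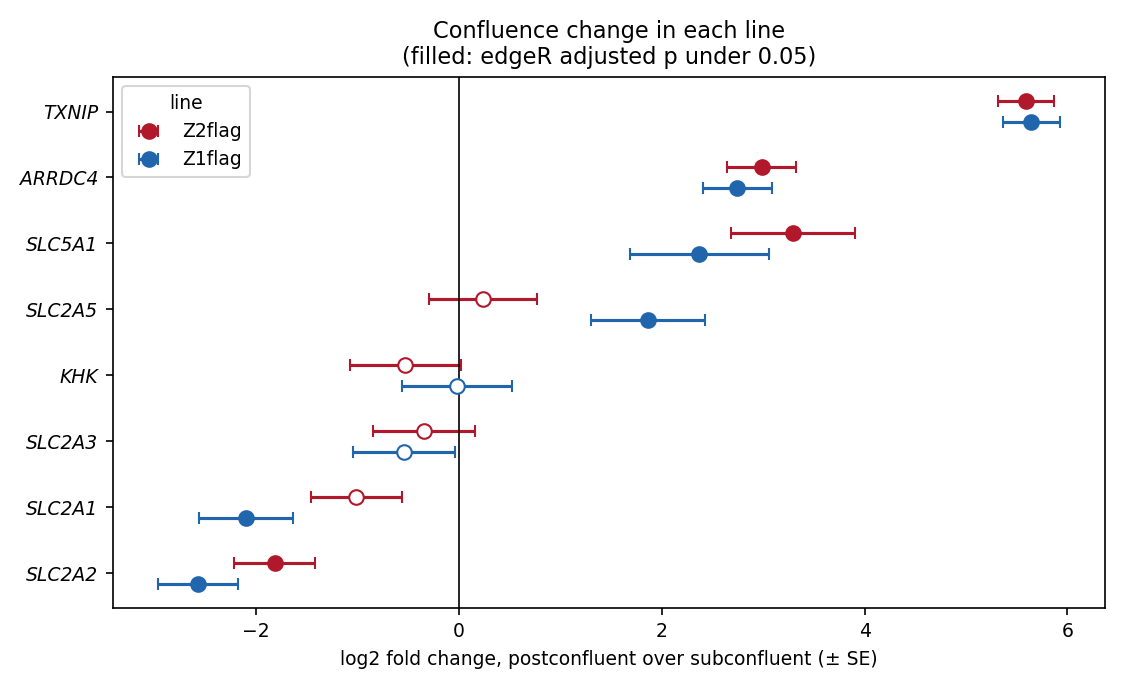
Log2 fold change of postconfluent over subconfluent cells, with its SE, for the 8 genes in Z2flag (red) and Z1flag (blue) cells; filled points passed edgeR's test at an adjusted p of 0.05. TXNIP lies at 5.59 and 5.64, and SLC2A5 is filled in Z1flag cells alone, a difference between lines that did not pass its own test (adjusted p = 0.799).

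The lines were then compared directly. In the test of the difference in the confluence change between Z2flag and Z1flag cells, 0 of the 8 genes and 0.0% of all genes passed by edgeR, and 0 passed by DESeq2 or limma voom. None of the 8 had an unadjusted p under 0.05, against 902 of the 18240 genes. The values nearest to it were those of SLC2A5, above, and of SLC2A1, at 1.09 (SE 0.63, edgeR unadjusted p = 0.113). The difference for SLC2A3 did pass without postconfluent Z1flag replicate 2, at 1.76 (adjusted p = 0.0396), and pointed the other way without postconfluent Z1flag replicate 1, at -0.45 (adjusted p = 0.668). Between lines within a state, 0 genes passed in postconfluent cells (1308 with an unadjusted p under 0.05) and 0 in subconfluent cells (195), and again 0 by DESeq2 or limma voom. Without postconfluent Z1flag replicate 2, 190 genes passed in the test of the difference and 2252 in postconfluent cells, 1 of the 8 genes in each. At an unadjusted p under 0.05, SLC5A1 was higher in postconfluent Z2flag than Z1flag cells by 1.39 (SE 0.56, adjusted p = 0.637). In subconfluent cells SLC2A5 was at 1.34 (SE 0.55) and SLC2A2 at -0.82 (SE 0.36) for Z2flag over Z1flag, both with an adjusted p of 1. TXNIP and ARRDC4 differed between lines by at most 0.21 in size within a state, and such a p does not show that the lines are alike.

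Levels of different genes were set side by side per kb of annotated exon. In postconfluent Z2flag cells SLC2A3 (650 and 780 CPM per kb) and TXNIP (648 and 625) headed the 8 genes, and they stood at places 34 to 50 of the 18184 tested genes with a length. In subconfluent Z2flag cells SLC2A3 (905 and 906 CPM per kb) stood at places 15 and 17 and TXNIP (12.7 and 13.7) at 3860 and 3694. In Z1flag cells the level of SLC2A3 was 247 and 1114 CPM per kb after and 1087 and 895 before confluence, and that of TXNIP was 701 and 519 after and 10.2 and 14.2 before. SLC2A1 came next in mean level over the postconfluent libraries, at 63.1 CPM per kb (27.9 to 116), against 179 (160 to 227) in subconfluent ones, where it was above TXNIP. ARRDC4 followed, at 34.7 CPM per kb (22.1 to 46.5) after and 4.78 (3.65 to 5.21) before confluence, and in the postconfluent libraries its range overlapped that of SLC2A1. The other 4 genes were low in both states: as means of 4 libraries, KHK had 1.58 CPM per kb after and 1.88 before confluence, SLC2A5 1.09 after and 0.579 before, SLC2A2 0.468 after and 2.25 before, and SLC5A1 0.410 after and 0.0511 before. The ranges of SLC2A2 and SLC5A1 overlapped in postconfluent cells, as did those of KHK and SLC2A5, while in subconfluent cells SLC5A1 lay below the other 3 in every library.

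**Figure D4:**
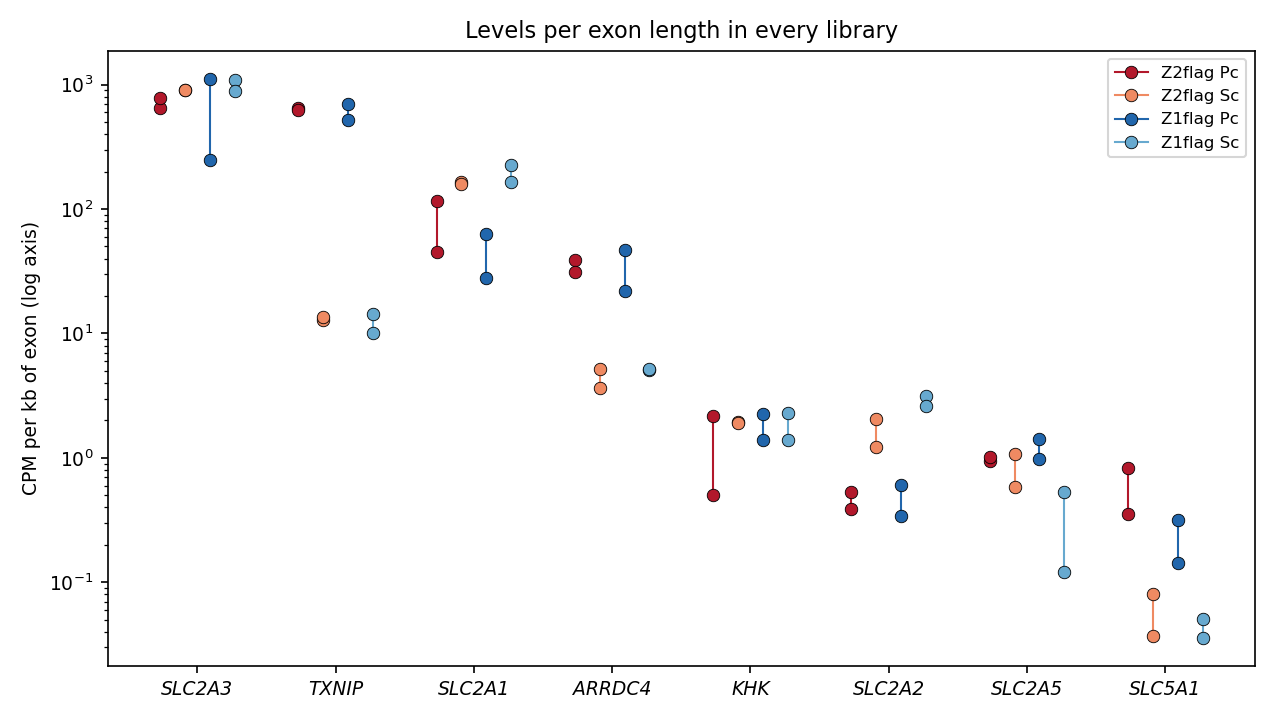
CPM per kb of annotated exon (log axis) of the 8 genes; points are single libraries, lines join the 2 libraries of a group, and colours give the 4 groups. SLC2A3 lies at 247 to 1114 in all groups, and TXNIP lies at 519 to 701 in postconfluent cells, against 10.2 to 14.2 in subconfluent cells.

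Of the summed per-length level of the 5 transporter genes, SLC2A3 made up 84.6% and 94.3% in postconfluent Z2flag libraries, against 84.3% and 84.8% in subconfluent ones, and 89.1% and 94.5% after against 82.5% and 84.3% before confluence in Z1flag libraries. SLC2A1 made up 15.1% and 5.49% of it in postconfluent and 15.5% and 14.9% in subconfluent Z2flag libraries. In Z1flag libraries that share was 10.1% and 5.36% after and 17.2% and 15.4% before confluence. The intestinal carriers SLC2A2, SLC2A5 and SLC5A1 each made up at most 0.513% in any library. The summed level itself was 277 CPM per kb in postconfluent Z1flag replicate 1, against 768 to 1178 in the other 3 postconfluent libraries and 1061 to 1317 in the 4 subconfluent ones.

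Genes related to the 8 by textbook role were counted in lists, to be read against the 55.4% of all genes called over both lines (27.8% higher and 27.5% lower). Of 14 other SLC2A and SLC5A transporters and SLC50A1 that were tested, 6 rose and 2 fell over both lines (median log2 fold change 0.62, against -0.01 for all genes), a share of called genes near that of all genes. SLC50A1, a sugar transporter of the SWEET family, had 84.4 ± 14.8 CPM after and 30.2 ± 3.55 CPM before confluence (SD, n = 4 libraries per state, as for all values of this kind below). SLC2A9, a urate carrier, had 15.7 ± 2.16 CPM after and 7.19 ± 0.938 CPM before confluence, and the sodium-coupled SLC5A9 had 29.01 ± 9.25 CPM after and 10.1 ± 3.85 CPM before. On the log2 scale SLC2A6 fell by 0.92 (SE 0.18) and SLC2A8 by 0.91 (SE 0.27), and 1 gene fell without postconfluent or subconfluent Z2flag replicate 2 or without both Z1flag replicate 1 libraries.

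Of 4 disaccharidase genes tested, 1 rose within Z2flag cells and 4 within Z1flag cells by edgeR's test, beside 18.3% and 21.3% of all genes. Over both lines all 4 rose and 0 fell, beside 27.8% and 27.5% of all genes. With limma voom, with either replicate block, without both Z1flag replicate 1 libraries and in 6 of the 8 omissions of single libraries 3 rose, and with the filter of 5 CPM 1 rose. LCT, encoding lactase, had 21.8 ± 4.39 CPM after and 6.54 ± 2.98 CPM before confluence. SI, encoding sucrase-isomaltase, had 4 and 11 counts (0.221 and 0.662 CPM) in postconfluent against 14 and 11 counts (0.333 and 0.310 CPM) in subconfluent Z2flag libraries. In Z1flag libraries it had 164 and 11 counts (6.20 and 0.561 CPM) after and 0 and 9 counts (0 and 0.344 CPM) before confluence, so that postconfluent replicate 1 alone stood high. SI changed by 0.43 (adjusted p = 0.799) in Z2flag and 4.20 (adjusted p = 0.0168) in Z1flag cells, and the difference between lines did not pass (adjusted p = 0.799). The third named gene, MGAM2, rose by 2.18 (SE 0.48) over both lines. Its change was 1.77 (edgeR adjusted p = 0.0597) in Z2flag and 2.58 (adjusted p = 0.0132) in Z1flag cells, a difference that did not pass (adjusted p = 0.851). MGAM2 had 13.4 CPM in postconfluent Z1flag replicate 1, against 2.25 to 4.45 CPM in the other postconfluent libraries.

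Of 10 genes of fructose and galactose handling, 4 rose and 2 fell over both lines (median 0.16), near the 55.4% of all genes. GALT, an enzyme of the galactose pathway, had 28.2 ± 3.68 CPM after and 10.7 ± 2.44 CPM before confluence, and GALM, which interconverts the anomers of galactose, had 87.0 ± 18.1 CPM after and 49.9 ± 14.3 CPM before. AKR1B1, which reduces glucose to sorbitol, fell to 19.1 ± 7.96 CPM after confluence, against 47.8 ± 5.42 CPM before. The 2 decreases became 1 when postconfluent Z2flag replicate 2 or subconfluent Z1flag replicate 2 was left out, and with upper-quartile scaling.

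Hexose phosphorylation and glucose-6-phosphatase genes gave 3 that rose and 2 that fell of 8 tested (median 0.45), also near the 55.4% of all genes. HKDC1, a hexokinase, had 251 ± 6.47 CPM after and 70.2 ± 16.6 CPM before confluence, while HK2 stood at 57.3 CPM after and 60.6 CPM before (log2 fold change -0.11, adjusted p = 0.717). ADPGK, an ADP-dependent glucokinase, and G6PC3, a glucose-6-phosphatase, fell by 0.72 (SE 0.13) and 0.53 (SE 0.16). Without subconfluent Z1flag replicate 2, or without postconfluent or subconfluent Z2flag replicate 2, and with upper-quartile scaling, 1 of these fell.

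In the list of MondoA and ChREBP factors and glucose-responsive targets, 9 of 14 genes rose and 2 fell over both lines (median 0.69), beside 27.8% and 27.5% of all genes. Within Z2flag cells 5 rose and 2 fell, beside 18.3% and 19.3% of all genes. Within Z1flag cells 6 rose and 2 fell, beside 21.3% and 19.1%. SCD and TKT passed over both lines but in neither line by itself. Fewer genes of the list rose over both lines when any 1 subconfluent library was left out, and 8 rose with the filter of 5 CPM. PKLR, among those that rose, passed the filter on low counts only through postconfluent libraries. MLXIPL, the gene of ChREBP, had 21.7 ± 6.22 CPM after and 3.13 ± 1.13 CPM before confluence (log2 fold change 2.81, SE 0.29, edgeR adjusted p = 4.417e-05). MLXIP, the gene of MondoA, had 28.2 CPM after and 27.9 CPM before confluence (log2 fold change 0.02, adjusted p = 0.925), and their partner MLX had 46.5 CPM after and 48.9 CPM before (-0.07, adjusted p = 0.651). KLF10, a Kruppel-like factor, rose to 161 ± 55.8 CPM after confluence, against 19.4 ± 2.14 CPM before, and PPP1R3B, a glycogen-targeting phosphatase subunit, had 53.5 ± 14.5 CPM after and 22.2 ± 3.08 CPM before. The 2 genes that fell, ACACA and ACLY, encode enzymes of fatty acid synthesis and changed by -0.93 (SE 0.14) and -0.68 (SE 0.17).

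Of 13 other alpha-arrestins, thioredoxin system genes and NEDD4-type ligases, 3 rose and 2 fell over both lines, with a median of -0.03 and a share of called genes below the 55.4% of all genes, a difference that was not tested. The alpha-arrestin ARRDC3 had 262 ± 138 CPM after and 37.5 ± 8.61 CPM before confluence, with postconfluent Z1flag replicate 1 at 55.4 CPM, and ARRDC2 had 10.7 ± 3.97 CPM after and 5.13 ± 0.849 CPM before, while ARRDC1 stood at 17.97 CPM after and 18.6 CPM before (adjusted p = 0.815). TXN, the thioredoxin that TXNIP binds, had 176 CPM after and 222 CPM before confluence (log2 fold change -0.35, adjusted p = 0.0664). The reductase gene TXNRD1 rose by 0.48 (SE 0.19, adjusted p = 0.0493) over both lines, with 0.85 (adjusted p = 0.0285) in Z2flag and 0.10 (adjusted p = 0.773) in Z1flag cells. That difference between lines did not pass edgeR's test (0.75, adjusted p = 0.799). TXNRD1 had 484 and 328 CPM in the 2 postconfluent Z2flag libraries. The 3 increases of the list numbered 2 with limma voom, no filter, the replicate block and 6 of the 8 omissions of single libraries. TXN2 and TXNRD2, both mitochondrial, fell by 0.37 (adjusted p = 0.0498) and 0.50 (adjusted p = 0.0192). These 2 decreases numbered 0 with upper-quartile scaling or without both Z1flag replicate 1 libraries, and 1 with RLE scaling, DESeq2, the filter of 5 CPM, the replicate block or the crossed replicate block. They numbered 0 when either subconfluent Z2flag library, postconfluent Z2flag replicate 1 or subconfluent Z1flag replicate 2 was left out, and 1 when postconfluent Z2flag replicate 2 or subconfluent Z1flag replicate 1 was.

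Of 8 regulators of hexose transporters tested, 4 rose and 2 fell over both lines (median 0.46), beside 27.8% and 27.5% of all genes. CDX2, a transcription factor of intestinal genes, rose by 0.58 (SE 0.20) on the log2 scale over both lines, with 0.02 (adjusted p = 0.953) in Z2flag and 1.14 (adjusted p = 0.0111) in Z1flag cells. PDZK1IP1, a membrane protein that partners sodium-glucose carriers, rose by 1.27 (SE 0.41), with 0.63 (adjusted p = 0.399) in Z2flag and 1.90 (adjusted p = 0.0267) in Z1flag cells. For neither gene did the difference between lines pass (adjusted p = 0.799 for both). HNF4A, another transcription factor, fell by 1.22 (SE 0.16). The 4 increases depended on single libraries: 0 were left when Z2flag replicate 2 or Z1flag replicate 1 of the subconfluent libraries was omitted, and 2 when Z2flag replicate 1 or Z1flag replicate 2 of them was. Without both Z1flag replicate 1 libraries 1 gene rose.

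SLC2A1 and SLC2A3 are textbook targets of the hypoxia-inducible factors, so 10 hypoxia-responsive genes were counted beside them. Of these 8 rose and 1 fell over both lines (median 1.54), beside 27.8% and 27.5% of all genes, with NDRG1 at 238 ± 34.6 CPM after and 3.61 ± 1.49 CPM before confluence, the mitophagy receptor BNIP3 at 146 ± 66.8 CPM after and 18.4 ± 2.57 CPM before, and the kinase PDK1 at 85.8 ± 18.9 CPM after and 25.8 ± 4.29 CPM before. EGLN3, an oxygen-sensing prolyl hydroxylase, fell by 1.75 (SE 0.15, edgeR adjusted p = 2.012e-05). SLC2A1 fell, as did EGLN3 of this list, while 8 of the list rose, and SLC2A3 did not pass in either line. The part of hypoxia in any of these changes was not tested.

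**Figure D5:**
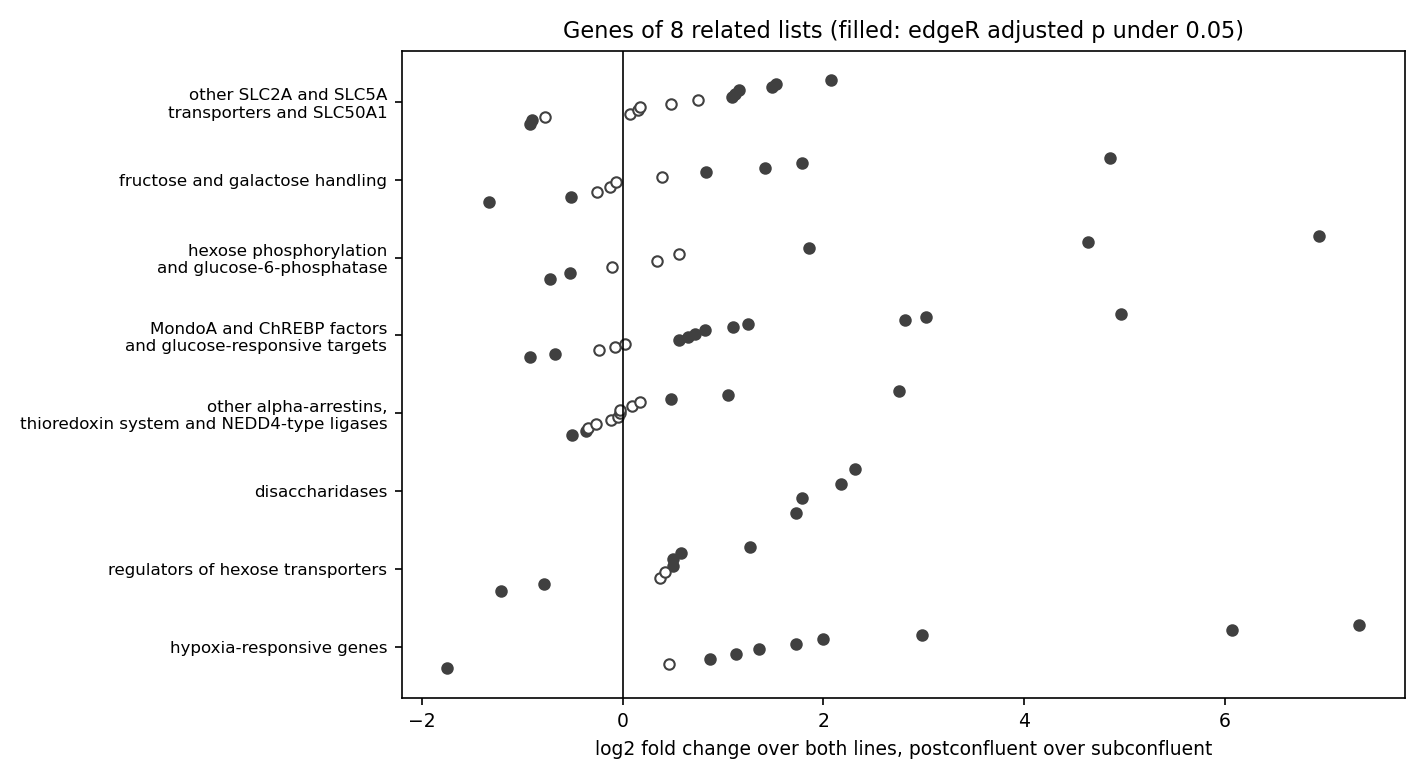
Log2 fold change over both lines of postconfluent over subconfluent cells for the tested genes of 8 related lists; each point is 1 gene, filled where edgeR's adjusted p was under 0.05. In the disaccharidase list all 4 points are filled and positive. Tested within single lines, 1 of these genes rose in Z2flag cells and 4 in Z1flag cells. Among them SI and MGAM passed the filter on low counts only through postconfluent libraries. In the hypoxia list 8 of 10 points are filled and positive.

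Likeness of expression profiles was measured as the root mean square difference of log2 CPM over the 8 libraries, each profile centred on its own mean, among 11073 genes with a mean of at least 5 CPM. The closest profiles are a description over libraries that share state and line. TXNIP was nearest to PIK3IP1 (difference 0.28), an inhibitor of phosphoinositide 3-kinase that had 26.5 ± 8.57 CPM after and 0.548 ± 0.130 CPM before confluence, and then to APOA4 (0.33). ARRDC4 was nearest to RAB6B (0.20) and CPE (0.28), and SLC5A1 to CRABP2 (0.25) and NR4A1 (0.31). SLC2A1 was nearest to the keratin gene KRT8 (0.19), which had 2325 ± 1073 CPM after and 6755 ± 601 CPM before confluence, and to its pseudogene KRT8P3 (0.20), whose reads can be shared with KRT8. SLC2A2 was nearest to FLRT3 (0.22) and ARHGAP28 (0.24). SLC2A3 was nearest to the mitotic genes CDC20 (0.14) and FAM83D (0.15), whose log2 fold changes over both lines were -0.57 (SE 0.30) and -0.45 (SE 0.29). The lowest point of the SLC2A3 profile was postconfluent Z1flag replicate 1, at 1519 CPM against 4004 to 6859 CPM in the other libraries. A link of SLC2A3 to cell division was not tested. SLC2A5 had no profile closer than those of AQP3 and AMBP (0.35 each), and KHK was nearest to BAIAP2-DT (0.24) and ABHD15 (0.25).

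The tagged genes themselves were detected in every library, with H2AZ2 at 55.3 and 58.2 CPM in postconfluent against 93.1 and 93.1 CPM in subconfluent Z2flag cells, and H2AZ1 at 108 and 197 CPM after against 292 and 341 CPM before confluence in Z1flag cells. Levels were likewise lower after confluence in the line where the gene is not tagged. H2AZ2 had 42.8 and 57.0 CPM after and 84.8 and 97.1 CPM before in Z1flag cells. H2AZ1 had 191 and 187 CPM after and 352 and 347 CPM before in Z2flag cells. Tagged and untagged alleles share 1 count per gene.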

How the data were processed

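The values analysed are raw counts per Ensembl gene as deposited, from stranded paired-end sequencing of total RNA after rRNA removal, per the labels. Per the submitters' processing notes the tools were STAR 2.5.2b, SAMtools and HTSeq with build hg38, and no source used here gives the annotation or strand setting for counting. Symbols came from a gene name table (57532 of 58302 IDs), and positions and exon lengths from GENCODE 29 on GRCh38 (58039 IDs).

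One model of 4 group means (4 residual degrees of freedom) was fitted in edgeR 4.0.16 (R 4.3.3; TMM scaling; filterByExpr with minimum count 10 and total 15; robust quasi-likelihood F test), with p-values adjusted by Benjamini-Hochberg over 18240 genes. The SE is the log2 fold change divided by the square root of F. The prior count for log2 CPM was 2. The pipeline was tested on simulated counts. Alternatives used DESeq2 1.42.0 and limma 3.58.1, other scalings and filters, a replicate block and left-out libraries.

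The members and lists were chosen with earlier results of these data known. Named were the 8 members, the 2 tagged genes, up to 3 genes per list and direction with the smallest adjusted p over both lines and a mean of at least 1 CPM, and the 2 nearest profiles per member. Some genes that this rule names are not reported here. TXN, ARRDC1, HK2, MLXIP and MLX were added after their values were seen. The search for CCAAT boxes was added after the data were seen. Promoters came from RefSeq (GRCh38.p14), for 6 of 8 members. Tables and figures used Python 3.11.15, pandas 2.3.3 and matplotlib 3.10.9.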

Additional observations from a re-analysis of the deposited data

Results flagged for a closer look

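Over both lines, each state has 4 libraries, and in 3 of the 16 sets formed by the 8 genes and the 2 states 1 library lay far from the other 3 in log2 CPM (gap over range above Dixon's 95% value; chance gives about 1 in 20 such sets). In subconfluent cells SLC2A1 stood at 1072 CPM in Z1flag replicate 1, against 754 to 785 CPM in the other 3. SLC2A3 stood at 6696 CPM in the same library, against 5511 to 5582 CPM in the others. ARRDC4 stood at 14.9 CPM in subconfluent Z2flag replicate 1, against 20.6 to 21.2 CPM in the others. Reads overlapping no feature made up 32.0% of all reads listed in subconfluent Z1flag replicate 1 and 31.4% in postconfluent Z1flag replicate 1, against 20.6% to 24.5% in the other 6 libraries, and the part of this in the levels was not tested.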

How the results depend on the processing

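Over the alternatives run, TXNIP and ARRDC4 kept their direction and their call within both lines and over both lines, as did SLC2A1, SLC2A2 and SLC5A1 over both lines where tested. Members that fell within Z2flag cells (1) numbered 2 with no filter on low counts and 2 with a crossed replicate block, SLC2A1 being added each time (adjusted p = 0.00188 and 0.0485), and 0 to 2 with 1 library left out. Members that rose within Z1flag cells (4) numbered 2 to 4 with 1 library left out, and without both Z1flag replicate 1 libraries 2 rose and 1 fell. In the test of the difference between lines 0 to 1 members passed with 1 library left out, and between lines in postconfluent cells 0 to 1. The crossed block was chosen after seeing the data, since same-numbered postconfluent libraries deviated oppositely (r = -0.18).

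Over all genes, Z2flag increases (3335) ranged from 1313 to 4885 and decreases (3529) from 1581 to 4223 with 1 library left out, and Z1flag increases (3890) from 1801 to 4697 and decreases (3490) from 1956 to 4165. Only the libraries of the line gave 2177 Z1flag decreases, and leaving out both Z1flag replicate 1 libraries gave 2427 increases. The difference between lines called 0 to 190 genes with 1 library left out, postconfluent lines 0 to 2252 (both highest without postconfluent Z1flag replicate 2) and subconfluent lines 0. With no filter on low counts (35174 genes) these were 41, 221 and 2. With upper-quartile scaling the median change over all genes was 0.18 on the log2 scale, against -0.01 with TMM, with 6248 genes higher and 3822 lower over both lines against 5076 and 5021. The cause of these shifts was not tested.

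The titles number the libraries Exp1 and Exp2 in all 4 groups, without saying that a number marks a shared batch or day, and the deposited files number the Z2flag libraries 3 and 4. Deviations of same-numbered libraries correlated at r from -0.18 to 0.178 over pairs of groups, so the numbers were not taken as pairs. With the replicate block the members that rose or fell were as many as without it within each line, but SLC2A5 over both lines was at 1.05 (adjusted p = 0.0504).

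Directions turned only where the main value had not passed. KHK within Z1flag cells was at 0.21 with upper-quartile scaling, 0.13 with a filter of 5 CPM, 0.087 with the replicate block and 0.020 with only the libraries of the line, against -0.02, and ranged from -0.37 to 0.39 with 1 library left out. Without both Z1flag replicate 1 libraries SLC2A3 was at 0.35 within Z1flag cells and 0.027 over both lines, and the differences between lines of SLC2A3, KHK and TXNIP were -0.64, 0.20 and 0.42. The difference for TXNIP was 0.019 with RLE scaling and 0.019 with DESeq2. With 1 library left out, the lowest and highest values were -1.83 to 0.25 for KHK, -0.16 to 0.74 for SLC2A5 within Z2flag cells, -2.02 to 0.20 for SLC2A3 within Z1flag cells, -0.92 to 0.12 for KHK over both lines, and -0.10 to 0.93 for ARRDC4, -1.82 to 0.26 for KHK, -0.45 to 1.76 for SLC2A3, -0.33 to 0.23 for TXNIP in the difference between lines. The order of the 8 genes by level per length was the same with the longest transcript or without TMM scaling. Depth limits SLC5A1, with 5 to 80 counts. A group left with 1 library is assumed to vary like the others.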
